A study of Saccharomyces cerevisiae with 28 samples.

Results

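The response of wild-type (WT) budding yeast to hydrogen peroxide was described from 4 of the 28 libraries of the series, the WT total RNA libraries, chosen by their labels. WT is BY4741, a haploid laboratory strain of mating type a with his3, leu2, met15 and ura3 mutations that every library used here carries. The H2O2 group holds 2 libraries of cells exposed to 0.4 mM H2O2 for 15 min, and the untreated group holds 2 libraries of cells without peroxide. According to the methods, cultures at an OD600 of 0.6 were divided, 1 portion was treated, and the experiment was done in duplicate. The study asked how the La-related proteins Sro9 and Slf1 take part in this stress response, and it sequenced sro9Δ and slf1Δ cells in the same way, with 2 H2O2 and 2 untreated libraries for each deletion strain. The remaining 16 libraries, of tagged strains and of protein-bound RNA, were not used here. Nothing in the labels says that the replicates were independent cultures, so that p-values measure the spread between these libraries.

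Hydrogen peroxide oxidises protein thiols, and in yeast it activates the transcription factor Yap1, which enters the nucleus and induces thioredoxin, glutathione and peroxidase genes together with its partner Skn7. A second, general programme is driven by Msn2 and Msn4, which switch on chaperones, catalase and carbohydrate reserve genes under many stresses. In the same general programme genes for making ribosomes and for growth are turned down.

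The deposited counts per gene summed to 7618860 and 4210135 in the H2O2 libraries, against 6643597 and 18146047 in the untreated libraries. Features of the rRNA locus, open reading frames that overlap it included, and the mitochondrial rRNA genes held 27.8% and 81.4% of the counts in the H2O2 libraries, against 47.4% and 7.54% in the untreated libraries, which left 5497171 and 783323 counts elsewhere in the H2O2 libraries, against 3493853 and 16777101 in the untreated libraries. The 3 deleted marker genes URA3, LEU2 and MET17 had 0 counts in every WT library, and the a-cell receptor gene STE2 had between 183 and 10190 counts, against between 4 and 54 for the alpha-cell receptor gene STE3. Levels below are TMM-scaled CPM relative to the counts outside the rRNA locus (written cpm), in the order replicate 1, replicate 2, and a change is the log2 ratio of H2O2 over untreated with its standard error (SE). Because the libraries are scaled to each other, a change in the RNA content of all genes together would not be seen, and fewer responding cells and less RNA per cell cannot be told apart.

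The untreated WT libraries stood apart from each other along the same genes that peroxide moved. Over the 6033 features with a mean of at least 50 counts, the SD between replicates was 0.52 on the log2 scale in the untreated group and 0.34 in the H2O2 group. Untreated replicate 1 was below replicate 2 by a median of 1.44 (log2) for general stress genes, by 1.18 for trehalose and glycogen genes and by 0.96 for peroxiredoxin and thioredoxin genes. It was above replicate 2 by a median of 1.47 for ribosome biogenesis factors and 0.72 for RNA polymerase I and III subunits. Of the 1433 features that rose with peroxide, 1147 were lower in untreated replicate 1 than in replicate 2, and of the 1202 that fell 1015 were higher in it. The part of this difference in the fold changes below was not tested beyond leaving out each library.

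**Figure D1:**
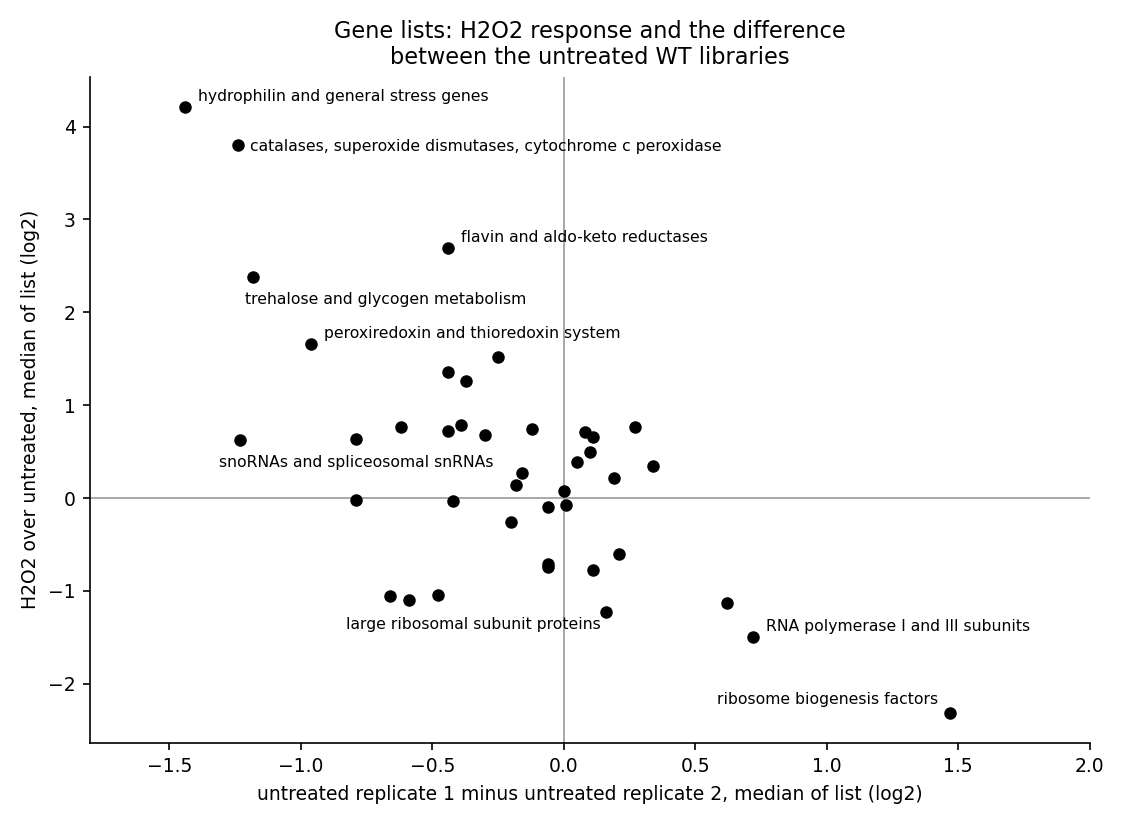
Each point is one gene list. The x axis is the median log2 difference between untreated WT replicate 1 and replicate 2, and the y axis is the median log2 change of H2O2 over untreated, which uses the same untreated libraries. General stress genes sit at the upper left (-1.44, 4.21) and ribosome biogenesis factors at the lower right (1.47, -2.31), while ribosomal protein genes sit at the lower left.

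Peroxide changed 35.8% of the transcriptome that could be tested. Of 7367 features, 1433 (19.5%) rose and 1202 (16.3%) fell at a Benjamini-Hochberg adjusted p under 0.05 (quasi-likelihood test of edgeR). Changes of at least 2-fold made up most calls, with 1162 features up (15.8%) and 990 down (13.4%). The rises reached further than the falls, in that 216 features rose and 56 fell at least 8-fold, and 36 rose and 1 fell at least 32-fold. How far a fall can be measured is limited by low counts in the H2O2 libraries, of which replicate 2 held 783323 outside the rRNA locus. The part of this depth in the comparison was not tested. The median change over all tested features was 0.03. With upper quartile scaling this median moved to -0.11 and the split became 1188 up and 1521 down. Small changes near this size so depend on the scaling. The main fit drew its estimate of the spread from the deletion strains as well. With the 4 WT libraries alone 1016 features rose and 976 fell, and with DESeq2 1086 rose and 1040 fell. Without H2O2 replicate 1, which leaves the shallow H2O2 replicate 2 alone in its group, 635 features rose and 316 fell, and without H2O2 replicate 2 791 fell. No feature was called in opposite directions by the main and any of the other fits.

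The largest rises were those of detoxification enzymes and membrane stress proteins. SRX1 encodes sulfiredoxin, which repairs over-oxidised peroxiredoxins, and had 1847 and 1702 cpm in the H2O2 libraries, against 1.32 and 4.02 cpm in the untreated libraries. Its change was 9.21 ± 0.63 (SE, n = 2 each, adjusted p = 7.31e-08 in edgeR), the largest of any gene. The noncoding transcript SUT668 had nearly the same counts as SRX1 in every library (10357 and 1359 in H2O2 libraries, against 3 and 63 in untreated libraries), and the 2 features cannot be told apart because the strand setting of the counting is not stated. HSP30, a plasma membrane heat shock protein, had 2248 and 1633 cpm in the H2O2 libraries, against 3.16 and 10.04 cpm in the untreated libraries, a change of 8.11 ± 0.62 (SE). OYE3, an NADPH oxidoreductase, had 487.6 and 459.5 cpm in the H2O2 libraries, against 1.05 and 2.14 cpm in the untreated libraries, a change of 8.01 ± 0.37 (SE). TSA2, the minor cytosolic peroxiredoxin, had 2143 and 1910 cpm in the H2O2 libraries, against 6.06 and 10.84 cpm in the untreated libraries, a change of 7.86 ± 0.55 (SE). In all of these the lowest H2O2 library was far above the highest untreated library, a separation of groups that 68.3% of all tested features showed in one direction or the other.

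The other features among the 15 largest rises changed by 5.72 to 6.91. They were the uncharacterised gene YDL218W (6.91), the glutathione transferase gene GTT2 (6.86), the nitroreductase-like gene HBN1 (6.76), the stress gene DDR2 (6.71), the cytosolic catalase gene CTT1 (6.47), the noncoding CUT409 (6.31), the multidrug transporter gene FLR1 (6.07), the aldehyde dehydrogenase gene ALD3 (5.95), the putative aryl-alcohol dehydrogenase gene AAD4 (5.85) and the eisosome protein gene FMP45 (5.72). DDR2 had 0 counts in untreated replicate 1 and 90 in replicate 2, and its change ran between 6.06 and 13.85 when 1 library was left out, so its place in this order is not fixed. For FLR1 both groups were tight, with 694 and 667 cpm in the H2O2 libraries, against 10.27 and 10.04 cpm in the untreated libraries.

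**Figure D2:**
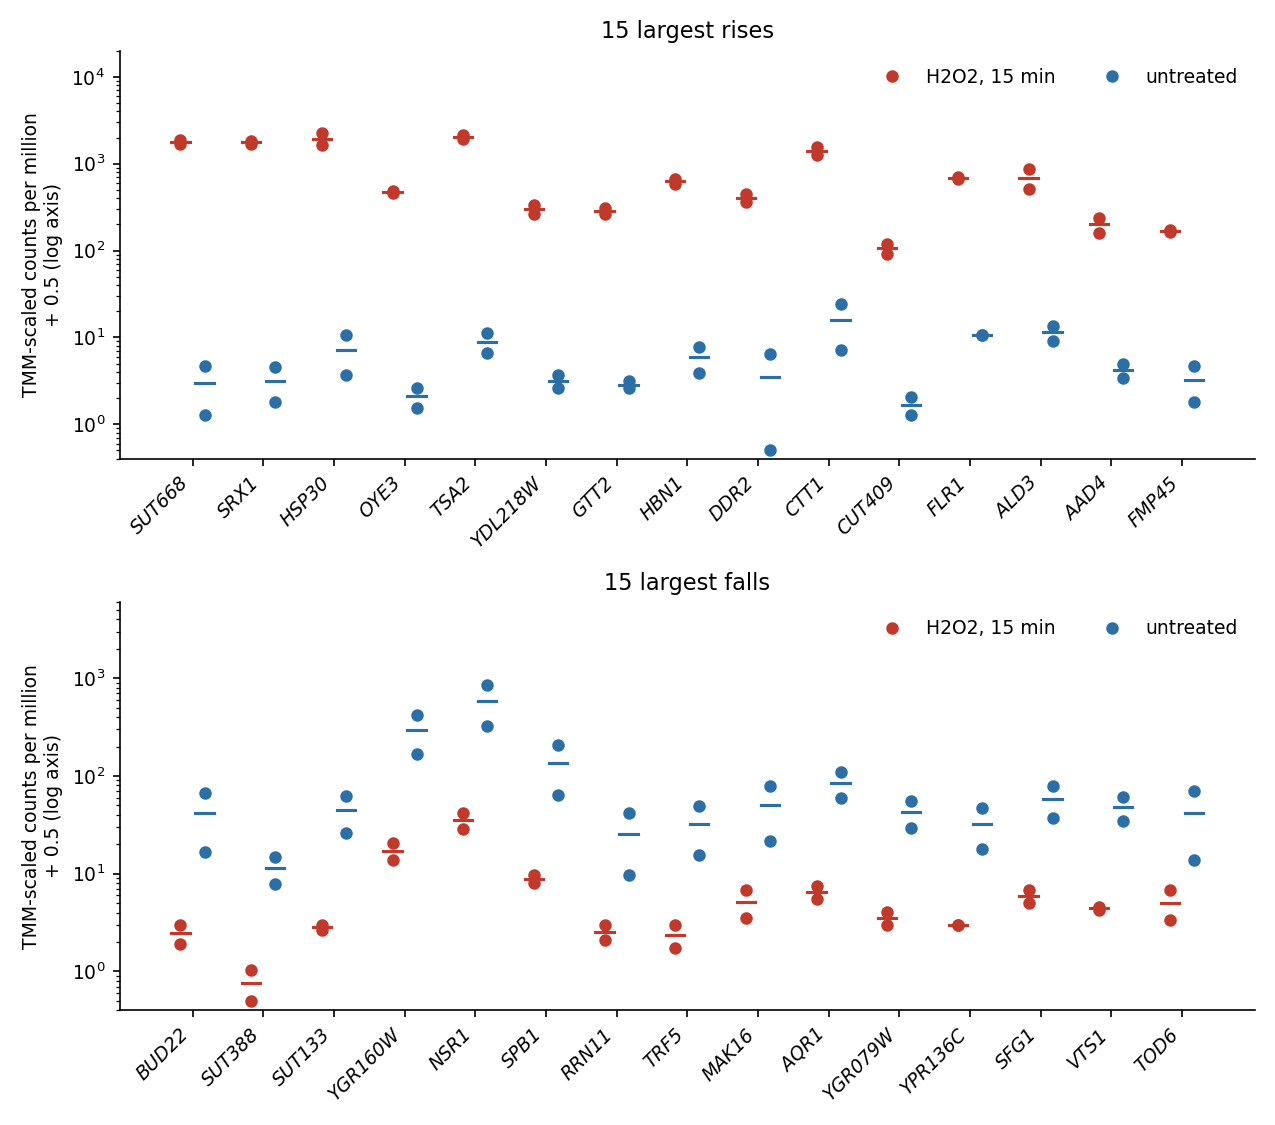
TMM-scaled CPM plus 0.5 on a log axis for the 15 largest rises (upper panel) and the 15 largest falls (lower panel). Points are libraries (H2O2 left of untreated, 2 each) and short lines are group means. SRX1 sits at 1847 and 1702 in the H2O2 libraries, against 1.32 and 4.02 in the untreated libraries, and no gene shown has overlapping groups, which the choice of these genes required.

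Of the thiol peroxidase and thioredoxin genes, which reduce peroxide at the expense of NADPH, 10 of 11 rose, beside the 19.5% of all features, and their median change was 1.66 beside 0.03 over all features. The mitochondrial peroxiredoxin gene PRX1 had 833.9 and 656.6 cpm in the H2O2 libraries, against 40.5 and 65.6 cpm in the untreated libraries (3.80 ± 0.36, SE). TRX2, a cytosolic thioredoxin gene, had 2165 and 1544 cpm in the H2O2 libraries, against 110.3 and 257.6 cpm in the untreated libraries (3.33 ± 0.50, SE), whereas its partner TRX1 changed by -0.03 ± 0.46 (SE) and was not called. The thioredoxin reductase gene TRR1 changed by 3.29 ± 0.48 (SE). TSA1, the main peroxiredoxin gene, had 4515 and 3435 cpm in the H2O2 libraries, against 815.3 and 1696 cpm in the untreated libraries (1.66 ± 0.54, SE), and AHP1, a further thiol peroxidase gene, had 8665 and 7082 cpm, against 1901 and 3701 cpm (1.49 ± 0.56, SE). The groups did not overlap for either gene, but both calls were close to the threshold (adjusted p of 0.0261 for TSA1 and 0.0478 for AHP1 in edgeR). AHP1 lost its call under upper quartile scaling, with rRNA features kept, without the filter on low counts, with the 4 WT libraries alone and with either replicate block, and both lost theirs without untreated replicate 1 and without either H2O2 library. The list shared 2.65% and 2.16% of the counts outside the rRNA locus in the H2O2 libraries, against 0.379% and 0.605% in the untreated libraries. The count of called genes was 5 without H2O2 replicate 1.

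Genes of the glutathione system, which provides the second thiol buffer of the cell, rose in 13 of 20 cases and fell in 1, with a median of 1.26. After GTT2, the largest changes were those of the glutathione peroxidase gene GPX2 (4.97) and of the omega-class transferase gene ECM4 (4.73). GRX2, a dithiol glutaredoxin gene, had 1092 and 975.5 cpm in the H2O2 libraries, against 46.6 and 120.7 cpm in the untreated libraries (3.62 ± 0.41, SE). GSH1, the first enzyme of glutathione synthesis, rose by 2.53, while GSH2, the second enzyme, changed by 0.52 and was not called. Glutathione reductase (GLR1) rose by 1.56. The monothiol glutaredoxin gene GRX4, which acts in iron sensing, fell by 1.02, but no gene of the list was called lower when either H2O2 library was left out.

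All 6 genes of catalases, superoxide dismutases and cytochrome c peroxidase rose, with a median of 3.80. CTT1 had 1566 and 1257 cpm in the H2O2 libraries, against 6.58 and 24.03 cpm in the untreated libraries (6.47 ± 0.58, SE). The peroxisomal catalase gene CTA1 had 295.2 and 246.1 cpm in the H2O2 libraries, against 12.64 and 14.12 cpm in the untreated libraries (4.33 ± 0.27, SE). CCP1, mitochondrial cytochrome c peroxidase, rose by 4.30, the manganese dismutase gene SOD2 by 3.29, the copper-zinc dismutase gene SOD1 by 1.99 and its chaperone gene CCS1 by 1.87.

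Among the flavin and aldo-keto reductases, which remove reactive carbonyls and quinones, 14 of 18 tested genes rose and none fell, with a median of 2.69. OYE3 and HBN1 led the list, followed by AAD4, by FRM2 (5.36), a relative of HBN1, and by the methylglyoxal reductase gene GRE2 (4.93). The 4 that were not called, AAD3, AAD10, AAD14 and AAD15, belong to a family of near-identical subtelomeric copies whose counts are uncertain. AAD4 and AAD6 are members of the same family, so the counts behind their changes are uncertain too. Of 18 multidrug and glutathione-conjugate transporters 7 rose (38.9%), beside 19.5% of all features. They were led by FLR1 and by ATR1 (3.60), a boron and drug exporter gene. The main drug pump gene PDR5 changed by 0.18 and the vacuolar glutathione-conjugate pump gene YCF1 by 0.35, and neither was called.

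NADPH for these systems comes in large part from the pentose phosphate pathway, where the response divided the genes. ZWF1, glucose 6-phosphate dehydrogenase, had 1185 and 1175 cpm in the H2O2 libraries, against 137.5 and 262.0 cpm in the untreated libraries (2.56 ± 0.38, SE). SOL4, GND2, TKL2 and NQM1 rose by 4.62, 3.96, 3.73 and 5.16. Their partners, which catalyse the same steps and were the more abundant in untreated cells, did not pass the test, with changes of -0.87 for SOL3, -0.02 for GND1, -0.99 for TKL1 and -0.33 for TAL1. RKI1, a ribose phosphate isomerase gene, fell by 1.78 and was not called without H2O2 replicate 1. The median of the 11 genes was -0.02, with 5 up and 1 down.

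This division between related genes was looked at in 20 pairs of isozymes or paralogs, with the member known as stress-inducible named first. The first member rose in all 20 pairs, and in 13 of them the second was not called. The median gap was 3.30 (log2). Since the first member was chosen for its known behaviour, the direction is given as a description only. Per kb of gene length, GND2 had 54.2 and 37.4 cpm in the H2O2 libraries, against 1.42 and 3.94 in the untreated libraries, and so stayed far below GND1, which had 716 and 655 in the H2O2 libraries, against 508 and 881 in the untreated libraries. TSA2 had 3626 and 3231 cpm per kb in the H2O2 libraries, against 10.25 and 18.35 in the untreated libraries. TSA1 had 7639 and 5812 cpm per kb in the H2O2 libraries, against 1380 and 2870 in the untreated libraries. After peroxide the level of TSA2 per kb was thus within the same order of magnitude as that of TSA1, whereas in untreated cells it was far below it. TRX2 stood far above TRX1 after peroxide. TRX2 had 6874 and 4902 cpm per kb in the H2O2 libraries, against 350 and 818 in the untreated libraries. TRX1 had 812 and 592 in the H2O2 libraries, against 473 and 968 in the untreated libraries. In both untreated libraries TRX1 was the higher, but by less than either gene differed between these libraries, and levels of different genes were not tested against each other. The gap was narrowest for the cytochrome c genes, CYC7 (4.51) and CYC1 (4.28), which both rose. CYC7 had 1 and 85 counts in the untreated libraries and an SE of 0.66, larger than the gap, so this rank is not fixed.

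**Figure D3:**
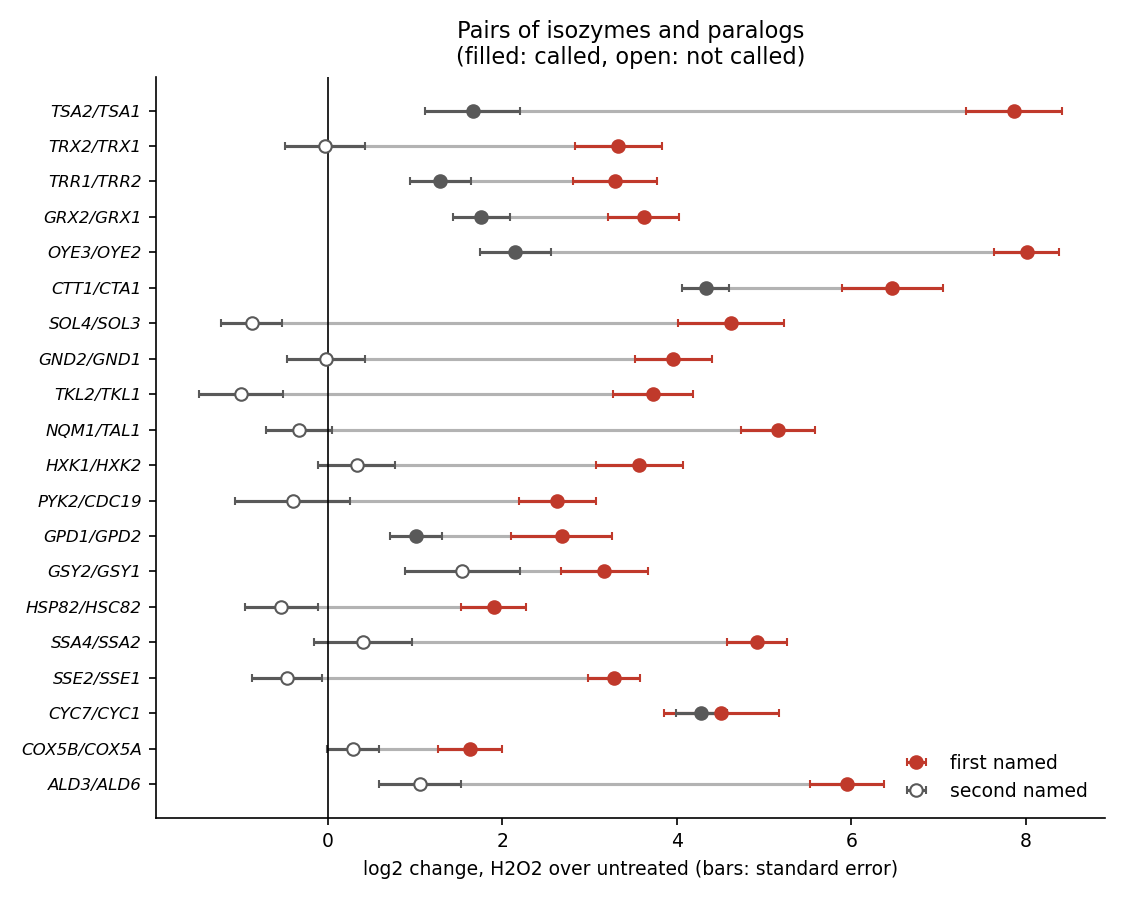
Log2 change of H2O2 over untreated for 20 pairs, with the stress-inducible member named first (red) and its partner second (grey). Points are fitted changes, bars are standard errors, filled points are called and open points are not. TSA2 lies at 7.86 against 1.66 for TSA1, and CYC7 and CYC1 lie together at 4.51 and 4.28.

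Stress regulator genes rose in 11 of 23 cases and fell in 1. CIN5, which encodes a Yap family factor also called Yap4, had 370.4 and 388.0 cpm in the H2O2 libraries, against 8.16 and 22.56 cpm in the untreated libraries (4.56 ± 0.40, SE). The repressor gene XBP1 rose by 3.72, the regulator gene USV1 by 3.60 and the hypoxic repressor gene ROX1 by 2.91. The genes of the activators themselves changed less. YAP1 rose by 1.43 ± 0.27 (SE) and RPN4, the proteasome gene activator, by 1.81, MSN2 (0.36), MSN4 (0.05) and HSF1 (0.24) were not called, and SKN7 fell by 1.72 ± 0.33 (SE), with 21.3 and 20.09 cpm in the H2O2 libraries, against 92.96 and 46.32 cpm in the untreated libraries.

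Of 33 tested heat shock proteins and cochaperones 21 rose and 1 fell, with a median of 1.52. After HSP30 the largest changes were those of the small heat shock protein genes HSP26 and HSP42 (4.96) and of SSA4, the inducible cytosolic HSP70 gene (4.92). SSA4 had 474.9 and 441.9 cpm in the H2O2 libraries, against 13.7 and 16.3 cpm in the untreated libraries. HSP104, the disaggregase gene, rose by 3.52, and HSP82, the inducible HSP90 gene, by 1.90. The ribosome-bound HSP70 gene SSB1 went the other way and fell by 1.58 ± 0.57 (SE, adjusted p = 0.0404 in edgeR), but it was not called when any 1 of the 4 libraries was left out.

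The 15 tested general stress genes, hydrophilins and other small proteins of the Msn2 and Msn4 programme, all rose, between 2.34 (YGP1) and 6.71 (DDR2), with a median of 4.21. RTN2 (5.63), a reticulon gene, and TMA10 (5.24), whose product associates with ribosomes, followed DDR2. HSP12, a membrane-protecting hydrophilin gene, had 1672 and 768 cpm in the H2O2 libraries, against 38.5 and 55.4 cpm in the untreated libraries (4.70 ± 0.52, SE). Their joint share of the counts was 0.714% and 0.507% in the H2O2 libraries, against 0.0253% and 0.0603% in the untreated libraries.

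Trehalose and glycogen are the storage carbohydrates of yeast, and 15 of their 17 genes rose, with a median of 2.38. GLC3, the glycogen branching enzyme gene, led with 4.17, followed by the phosphoglucomutase gene PGM2 with 4.09. TSL1, a trehalose synthase subunit gene, had 2415 and 2296 cpm in the H2O2 libraries, against 27.4 and 344 cpm in the untreated libraries (3.66 ± 0.77, SE), a wide spread in the untreated group. Genes for synthesis (TPS1 at 2.85, GSY2 at 3.17) and for breakdown (NTH1 at 2.52, GPH1 at 2.53) rose alike in sign.

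Glycolysis did not move as a block. Of 34 genes of glycolysis, fermentation and glycerol metabolism 13 rose (38.2%, beside 19.5% of all features) and 1 fell. Their median of 0.64 was 0.38 without H2O2 replicate 1, 0.40 without untreated replicate 1 and 1.21 without untreated replicate 2. Those that rose were mainly alternative isozymes, such as TDH1 (4.05), HXK1 (3.57) and GLK1 (2.89), and genes of aldehyde and glycerol metabolism, such as ALD3, ALD4 (3.30), DAK2 (4.06) and GPD1 (2.68). The highly expressed PGK1 (0.44), FBA1 (-0.05), ADH1 (0.45) and CDC19 (-0.40) were not called, and TDH3 (-0.31) and ENO2 (-0.23) were not either, although their counts can mix with those of near-identical copies.

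Protein turnover genes rose broadly. UBI4, the polyubiquitin gene, had 1159 and 821 cpm in the H2O2 libraries, against 65.8 and 131.5 cpm in the untreated libraries (3.32 ± 0.41, SE). Of 24 ubiquitin and autophagy genes 15 rose, with ATG8 (3.02) and ATG3 (2.52) the largest after UBI4. Of 33 proteasome subunits 18 rose and none fell, but by small steps, between 0.03 (RPN1) and 1.27 (PRE2) with a median of 0.71. When H2O2 replicate 1 was left out 2 of the 33 proteasome genes were called, and 11 when H2O2 replicate 2 was.

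In the mitochondrion, 20 of 39 nuclear genes of the respiratory chain and ATP synthase rose and none fell, with a median of 0.76. CYC1 had 423.9 and 425.6 cpm in the H2O2 libraries, against 18.96 and 24.36 cpm in the untreated libraries (4.28 ± 0.29, SE). NDI1, the internal NADH dehydrogenase gene, rose by 2.24, and the succinate dehydrogenase gene SDH1 by 1.57. The count of called genes ranged from 4 without H2O2 replicate 1 to 26 without untreated replicate 2. Among genes of the tricarboxylic acid and glyoxylate cycles 8 of 24 rose (33.3%), beside 19.5% of all features. IDH1 (2.93), IDH2 (2.78) and CIT1 (2.46) came first, and the malic enzyme gene MAE1 fell by 1.85. The rises numbered 5 without H2O2 replicate 1 and 5 without untreated replicate 1. Of the 67 mitochondrial ribosomal protein genes 32 rose and 1 fell, with a median of 0.74, opposite in sign to their cytosolic counterparts. The number that rose was 8 without H2O2 replicate 1, and RSM22 (-0.92) was the single gene called lower, while none was without either H2O2 library or without untreated replicate 1.

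In the iron regulon 13 of 27 rose, led by HMX1 (4.30), haem oxygenase, by the iron-sulfur scaffold gene ISU2 (3.39), the mitochondrial iron carrier gene MRS4 (3.31) and ISU1 (3.18). The high-affinity uptake genes FET3 (-0.65) and FTR1 (-1.03) did not share this direction, and of the pair FTR1 was called, though not without either H2O2 library. Of 27 sulfur assimilation and methionine genes 6 rose, near the share of all features, with a median of -0.08, with STR3 (3.36) and MET28 (2.59) first, and the methionine synthase gene MET6 fell, with 972.8 and 1006 cpm in the H2O2 libraries, against 2151 and 2382 cpm in the untreated libraries, at an adjusted p of 0.0486 in edgeR. No sulfur gene was called lower without H2O2 replicate 2 or without either untreated library. Their joint share of the counts was 0.583% and 0.649% in the H2O2 libraries, against 0.862% and 0.880% in the untreated libraries. The count that rose was 2 without H2O2 replicate 1. LYS20, a homocitrate synthase gene of lysine synthesis, had the largest rise among 59 genes of amino acid synthesis outside the sulfur pathway, with 2003 and 1916 cpm in the H2O2 libraries, against 159.3 and 176.1 cpm in the untreated libraries (3.55 ± 0.44, SE). In that list 15 rose (25.4%) and 6 fell (10.2%), beside 19.5% and 16.3% of all features, and the median was 0.14. ILV5 of branched-chain synthesis fell most (-2.23). Leaving out H2O2 replicate 1 gave 6 up and 0 down, leaving out H2O2 replicate 2 gave 9 and 3, and leaving out untreated replicate 1 gave 9 and 4.

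Ribosome production genes fell widely. Of 117 ribosome biogenesis factors 110 fell and none rose, beside 16.3% of all features, with a median of -2.31. NSR1, the yeast nucleolin, had 28.1 and 41.4 cpm in the H2O2 libraries, against 851.7 and 321.4 cpm in the untreated libraries (-4.13 ± 0.54, SE, adjusted p = 4.14e-05 in edgeR). SPB1, an rRNA methyltransferase gene, had 9.31 and 7.53 cpm in the H2O2 libraries, against 208.6 and 63.6 cpm in the untreated libraries (-3.93 ± 0.53, SE). In both genes the groups were well apart although the untreated libraries differed by more than 2-fold. MAK16, a large subunit assembly factor gene, fell by 3.71, and RRP12, an export factor gene, and DBP10, a helicase gene, fell by 3.34 each. The list drew 0.383% and 0.470% of the counts in the H2O2 libraries, against 2.87% and 0.981% in the untreated libraries. ROT1, which the list also holds and which is known as a factor of the endoplasmic reticulum, changed by 0.60 and was not called. The number that fell was 55 without H2O2 replicate 1, 94 without untreated replicate 1, with a median of -1.40, and 115 without untreated replicate 2, with a median of -2.93.

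Beside NSR1, SPB1 and MAK16, the 15 largest falls held BUD22 (-4.63), which acts in small subunit maturation, RRN11 (-3.76), a core factor of RNA polymerase I, TRF5 (-3.74), a poly(A) polymerase of nuclear RNA surveillance, and TOD6 (-3.51), a repressor of ribosome biogenesis genes. AQR1 (-3.67), a membrane transporter gene, SFG1 (-3.54), a transcription factor gene of filamentous growth, VTS1 (-3.53), an RNA-binding protein gene, and the uncharacterised YGR079W (-3.62) belong to other functions. YGR160W (-4.26) overlaps NSR1 and YPR136C (-3.62) is likewise a dubious frame, so their counts may be those of a neighbour. The noncoding SUT388 (-4.55) and SUT133 (-4.27) complete the list. Several of these falls rest on few counts in the H2O2 libraries, such as 8 and 2 for BUD22, against 253 and 244 in the untreated libraries. RRN11, MAK16 and TOD6 were not called without H2O2 replicate 1.

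The RNA polymerases that make rRNA and tRNA followed, with 16 of 21 genes down, 1 up and a median of -1.50. RPA190, the largest subunit of polymerase I, had 121.6 and 151.9 cpm in the H2O2 libraries, against 1242 and 580 cpm in the untreated libraries (-2.74 ± 0.38, SE), and RPC82 of polymerase III fell by 2.77. The single gene that rose was MAF1 (1.62 ± 0.29, SE), which encodes the repressor of polymerase III. The number that fell was 8 without H2O2 replicate 1.

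Of the 138 cytosolic ribosomal protein genes 42 fell (30.4%, beside 16.3% of all features), none rose and the rest did not pass the test. Their median was -1.09, and 135 fitted changes were below 0. Together they took 8.35% and 9.53% of the counts outside the rRNA locus in the H2O2 libraries, against 15.2% and 18.9% in the untreated libraries. RPS28B had 47.8 and 31.4 cpm in the H2O2 libraries, against 155.4 and 199.9 cpm in the untreated libraries (-2.11 ± 0.49, SE), the largest fall of the list. The 3 changes above 0, in RPL41A (0.66), RPL41B (0.55) and RPL15B (0.32), were not called. Unlike the biogenesis factors, ribosomal protein genes were lower in untreated replicate 1 than in replicate 2, by a median of 0.61 (log2). The number that fell depended strongly on single libraries, with 59 without untreated replicate 1, 15 without untreated replicate 2, 2 without H2O2 replicate 1 and 7 without H2O2 replicate 2, and reads of duplicated ribosomal protein genes can be shared between copies.

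**Figure D4:**
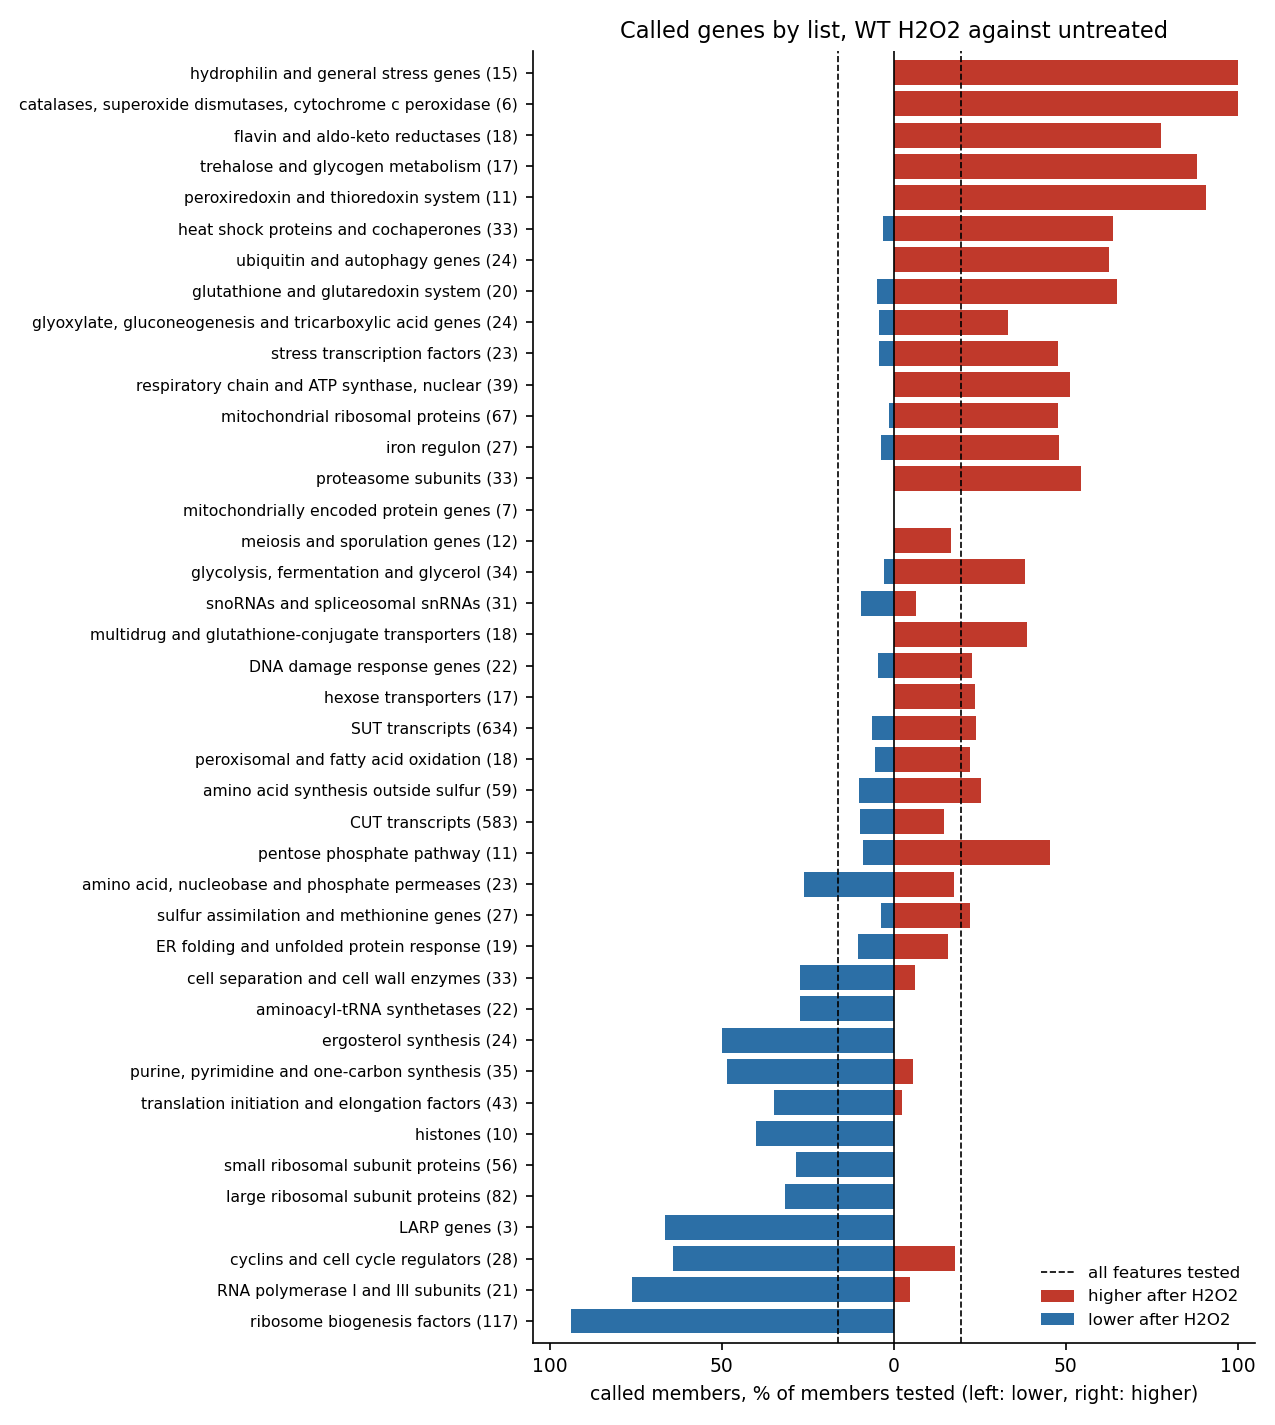
Share of tested members of each list that rose (right, red) or fell (left, blue) after H2O2, with the number tested in brackets and lists ordered by median change. Dashed lines mark the shares over all 7367 features, 19.5% up and 16.3% down. General stress genes reach 100% up and ribosome biogenesis factors 94.0% down.

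Translation factors fell in 15 of 43 cases (34.9%) and rose in 1, with a median of -0.77. NIP1, a subunit of initiation factor eIF3, fell by 2.19, the scaffold gene TIF4631 (eIF4G1) by 1.91, the elongation factor gene YEF3 by 1.86 and the poly(A)-binding protein gene PAB1 by 1.70. DBP1, a helicase gene related to DED1, rose by 2.05, and DED1 changed by -0.25. Of 22 aminoacyl-tRNA synthetase genes 6 fell (27.3%), beside 16.3% of all features. These counts were 5 and 0 without H2O2 replicate 1, and 11 and 2 without H2O2 replicate 2, while 2 synthetases fell without untreated replicate 1. Among the La-related and La proteins, SRO9 had 74.3 and 114.3 cpm in the H2O2 libraries, against 328.9 and 213.3 cpm in the untreated libraries (-1.55 ± 0.30, SE, adjusted p = 0.00116 in edgeR). LHP1, the yeast La protein gene, fell by 1.13. Neither was called without H2O2 replicate 1. SLF1 had 25.96 and 17.58 cpm in the H2O2 libraries, against 27.65 and 17.60 cpm in the untreated libraries, a change of 0.05 ± 0.36 (SE) that was not called.

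Cell cycle genes fell in 18 of 28 cases and rose in 5, with a median of -1.23. The G1 cyclin gene CLN2 had 14.9 and 13.8 cpm in the H2O2 libraries, against 126.7 and 107.6 cpm in the untreated libraries (-3.01 ± 0.31, SE). CLN1 (-3.06) and the Pho85 cyclin gene PCL1 (-2.85) fell with it, and so did the mitotic cyclin genes CLB1 (-3.07) and CLB2 (-2.50). Those that rose were the G1 inhibitor gene WHI5 and the Pho85 cyclin genes PCL5 (1.29), PCL6 (1.21), PCL7 (1.22) and PCL8 (1.23). With H2O2 replicate 1 left out, none of the list rose and 9 fell. In this list the untreated libraries showed little common shift, with a median signed difference of 0.16 (log2), in which opposite differences cancel. Of 10 histone genes, of which HTZ1 and HHO1 are a variant and a linker histone, 4 fell (40.0%), beside 16.3% of all features. HTA1 (-1.54) and HHF2 (-1.53) fell most. The number that fell was 1 without H2O2 replicate 1, 0 without H2O2 replicate 2 and 2 without untreated replicate 2.

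Genes of biosynthesis for growth fell in part. Of 35 purine, pyrimidine and one-carbon genes 17 fell and 2 rose, with a median of -0.74, where 16.3% of all features fell and 19.5% rose. IMD4, inosine monophosphate dehydrogenase of guanine synthesis, had 110.6 and 123.0 cpm in the H2O2 libraries, against 690 and 669 cpm in the untreated libraries (-2.55 ± 0.46, SE). Of 24 ergosterol genes 12 fell and none rose, ERG11 most (-1.70). Of 33 cell wall and cell separation genes 9 fell (27.3%) and 2 rose (6.1%), with a median of -0.26 and with UTR2 (-2.53) and PIR3 (2.74) at the ends. Among 23 permeases of amino acids, nucleobases and phosphate 6 fell (26.1%) and 4 rose (17.4%), the latter share near that of all features, with a median of -0.03. The phosphate transporter gene PHO84 (-2.42), the uridine permease gene FUI1 (-2.41) and the uracil permease gene FUR4 (-2.33) fell most, and AGP1 rose most (1.92). In the order purine and pyrimidine, ergosterol, cell wall and permease genes, the falls numbered 4, 2, 2 and 3 without H2O2 replicate 1, and 11, 7, 2 and 5 without H2O2 replicate 2. The permeases that rose numbered between 1 without H2O2 replicate 1 and 8 without untreated replicate 2.

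The promoters of the genes that changed were searched for 3 short motifs. The window ran from 250 bases before the start codon to 50 bases after its first base, in 5580 tested protein-coding genes, with sequences from the RefSeq annotation of build R64. The Yap1-type motif TTACTAA, whose reverse complement is TTAGTAA, the Msn2 and Msn4 type motif AGGGG and the PAC core GATGAG were counted on both strands. A Yap1-type and an Msn2 and Msn4 type match overlapped in 4 promoters, and an Msn2 and Msn4 type match and a PAC core in 8. The examples below are genes named above, shown to place the motifs in sequence. They run 5′ to 3′ on the gene's own strand, with the match in capitals, on either strand, and 10 bases on each side. Where a promoter had several matches, the one nearest the start codon is shown. OYE3 lies at chrXVI:227503-227529 (minus strand), GTT2 at chrXII:21921-21947 (minus), TRX2 at chrVII:913392-913418 (minus) and GRX2 at chrIV:1470863-1470889 (plus), all with a Yap1-type match.
OYE3: gcaataaccaTTACTAAgcacagtgtt
GTT2: ctttcactgcTTACTAAttcattcgtt
TRX2: ggctcttttcTTACTAAgcgcgttcag
GRX2: agcagaactaTTACTAAgatccgatat

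CTT1 at chrVII:654491-654515 (plus strand), DDR2 at chrXV:231916-231940 (minus) and HSP12 at chrVI:107056-107080 (plus) carry the Msn2 and Msn4 type motif, here as its reverse complement.
CTT1: tttatcgtatCCCCTactgctacac
DDR2: tcttttctcaCCCCTtatgggacat
HSP12: tccggtcgtcCCCCTcttgatctga

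NSR1 at chrVII:807828-807853 (minus strand), MAK16 at chrI:101254-101279 (minus), TRF5 at chrXIV:66341-66366 (plus) and BUD22 at chrXIII:298758-298783 (plus) carry the PAC core on one or the other strand.
NSR1: gcaagggcagCTCATCgcaagaacga
MAK16: aaaattttccGATGAGcttttgaaaa
TRF5: ggcatctcatCTCATCgcagttaaaa
BUD22: tctcatctacCTCATCactgtgtgca

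The motifs were not evenly spread over the response. The PAC core was in 413 of 1036 promoters of genes that fell (39.9%), 160 of 1119 that rose (14.3%) and 1125 of all 5580 (20.2%). It was in 151 of 222 promoters (68.0%) of genes that fell at least 4-fold, in 94.0% of the ribosome biogenesis list and in 81.0% of the RNA polymerase I and III list, but in 10.9% of the ribosomal protein list. Of the 173 promoters with 2 or more matches 66.5% belonged to genes that fell and 4.6% to genes that rose, and their median change was -1.46. The Msn2 and Msn4 type motif was in 40.2% of promoters of genes that rose, in 124 of the 1036 promoters of genes that fell and in 22.0% of all, and in 56.1% of the 155 that rose at least 8-fold. It was in 46.7% of the general stress list and 52.9% of the trehalose and glycogen list. It was also in 72.7% of the pentose phosphate list, whose median change was -0.02, and in 40.0% of the histone list, where no gene rose. The median change was -0.12 with no match, 0.44 with 1 and 0.89 with 2 or more. The Yap1-type motif was in 11.5% of promoters of genes that rose, 5.6% of those that fell and 7.7% of all. It was in 17.4% of those that rose at least 8-fold and in 35.0% of the glutathione list, but in 1 of the 11 promoters of the peroxiredoxin and thioredoxin list. The median change was -0.02 with no match, 0.19 with 1 and -0.05 in the 21 promoters with 2 or more. SRX1, TSA2, FLR1, TRR1 and AAD4 had no match to these letters before the start codon, which says nothing of other forms of the motif. FMP45 and HSP30 likewise had no Msn2 and Msn4 type match there, and SPB1 had no PAC core. Of the 13 promoters searched among the largest rises, 6 held the Yap1-type and 4 the Msn2 and Msn4 type motif. Of the 11 among the largest falls, 9 held the PAC core. These shares are descriptions of sequence, without a test, and a match is not a bound site.

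**Figure D5:**
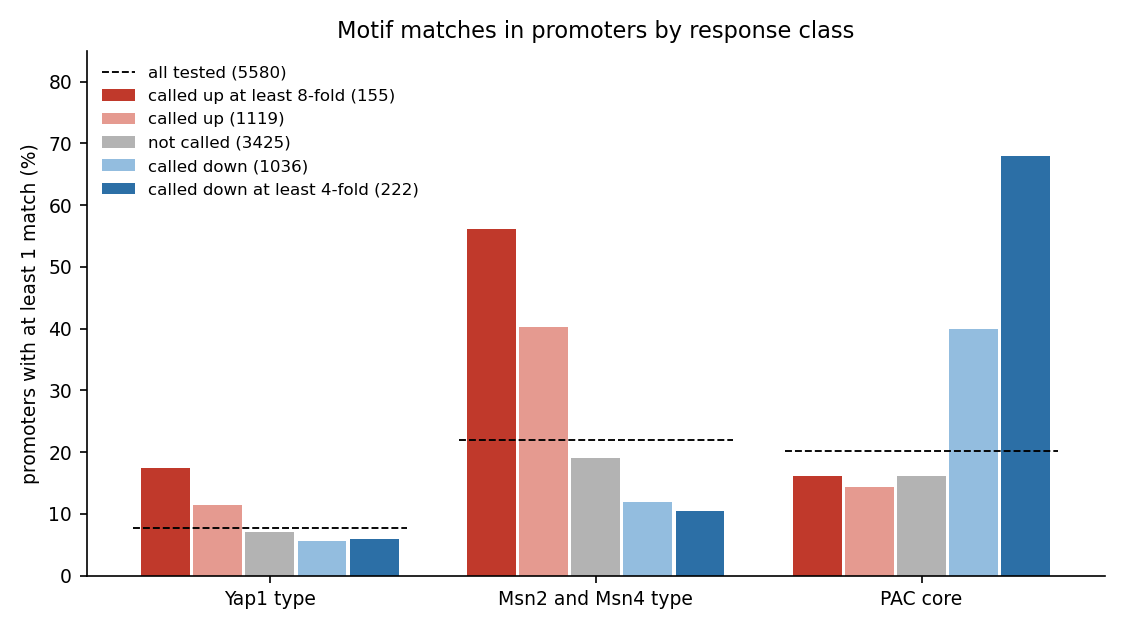
Share of promoters with at least 1 match to each motif, by response of the gene, with the number of promoters in brackets. Bars run from genes that rose at least 8-fold to genes that fell at least 4-fold, and dashed lines give the share over all 5580 promoters. The PAC core reaches 68.0% among the strongest falls and the Msn2 and Msn4 type motif 56.1% among the strongest rises.

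The WT response was set beside those of sro9Δ and slf1Δ cells, the most similar experiments, each with its own untreated libraries. The deletion strains include libraries much shallower than any of WT, with 172267 counts outside the rRNA locus in an slf1Δ H2O2 library and 242555 in an sro9Δ untreated library, and their part in the values below was tested only for the difference between responses. Of the 2635 features called in WT, 95.1% changed in the same direction in sro9Δ and 93.4% in slf1Δ. These features were chosen by their WT calls, and the same share over all tested features was not computed. The features called in the same direction in both strains of a pair were 38.0% of the WT calls and 84.7% of the 1183 sro9Δ calls, and 37.0% of the WT calls and 77.6% of the 1258 slf1Δ calls. Features that rose in WT had a median change of 1.46 in WT, 1.15 in sro9Δ and 1.02 in slf1Δ, and those that fell had medians of -1.41, -0.84 and -0.69 in the same order, where the features were chosen by their WT values. Ribosome biogenesis factors had a median of -2.31 in WT, or -1.40 without untreated WT replicate 1, -0.92 in sro9Δ and -0.56 in slf1Δ. Against the untreated libraries of the deletion strains, untreated WT replicate 1 deviated by 1.22 (log2) for this list and replicate 2 by -0.15. For the ribosomal protein list these deviations were -0.15 and 0.46, and for the general stress list -1.01 and 0.65, so which replicate deviated more depended on the list. The ribosomal protein list had medians of -1.09 in WT, -0.97 in sro9Δ and -0.77 in slf1Δ. In the same order the general stress list had 4.21, 2.64 and 3.66, and the catalase and dismutase list 3.80, 3.55 and 2.92.

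The test of the difference itself, the WT response minus the deletion strain response, called 0 of 7367 features (0.0%) against either strain in edgeR's quasi-likelihood test. At an unadjusted p under 0.05 there were 537 features for sro9Δ and 874 for slf1Δ, and DESeq2 called 2 and 49. With the replicate number as a block edgeR called 0 and 27, and with the WT numbers crossed 3 and 103. Without the 2 shallowest deletion-strain libraries and the rRNA locus frames it called 0 and 0. The smallest adjusted p was 0.312 for sro9Δ and 0.0722 for slf1Δ. For sro9Δ the 5 smallest belonged to ATG41, an autophagy gene, VHT1, the biotin transporter gene, COX23, HXT5, a hexose transporter gene, and HSP12. ATG41 had 860 and 151 counts in the WT H2O2 libraries, against 36 and 111 counts in the WT untreated libraries, and its change was 4.36 in WT and 2.28 in sro9Δ. HSP12 changed by 4.70 in WT and 1.66 in sro9Δ. For slf1Δ the 5 smallest, which shared the adjusted p of 0.0722, were FMP45 (5.72 in WT, 1.63 in slf1Δ), the dihydroxyacetone kinase gene DAK2 (4.06 and 0.54), the mRNA decay factor gene TIS11 (2.45 and 0.19), the hexose transporter gene HXT7 (2.60 and -0.53) and the dubious frame YLR198C (-1.97 and 0.90). These values did not pass the test. The number called depended on the untreated WT libraries. Without untreated WT replicate 2, 499 features differed from sro9Δ and 872 from slf1Δ, and without untreated WT replicate 1 the counts were 0 and 16.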

How the data were processed

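Total RNA of the 12 untagged libraries was used. Per the labels and the methods, the authors extracted RNA with TRIzol, depleted rRNA with Ribozero, made stranded TruSeq libraries, trimmed reads with Trim Galore, mapped them with Bowtie 1.2.0 to build R64 (sacCer3) and counted them with featureCounts, and the deposited values are raw counts per feature without normalization. The handling of multiply mapped reads and the strand setting are not given in the sources used here. The files of tagged strains and of protein-bound RNA were left out, the tagged strains because their file names and labels conflict.

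Of 9217 features, 16 rRNA features were removed. The other 23 features of the rRNA locus stayed in, and leaving them out too was an alternative. TMM factors and edgeR 4.0.16 (R 4.3.3) quasi-likelihood tests were fitted to all 12 libraries, with 6 group means, 6 residual degrees of freedom and filterByExpr (minimum count 10), which kept 7367 features. The deletion strains so share in the estimate of the spread. Calls had an adjusted p (Benjamini-Hochberg) under 0.05. SE is the absolute log2 change divided by the square root of F. Levels are TMM-scaled CPM, multiplied by one constant (2.436) for all libraries so that they refer to counts outside the rRNA locus, and differences between libraries used log2(cpm + 0.5). Shares of counts have 95% Wilson intervals of at most 0.075 percentage points on each side, which cover counting error only.

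The genes named are the 15 largest rises and falls among called features with non-overlapping groups and a mean of at least 50 counts, 7 antioxidant genes chosen by hand (TSA1, TSA2, TRX2, GRX2, ZWF1, AHP1 and SRX1), the 5 smallest adjusted p of each difference, and members of function lists, largest changes first. Members and lists were chosen with earlier results of these data known. List counts and medians carry no test. Of the list members, 1 (AAD16) had no feature. RefSeq symbols matched 6048 feature identifiers.

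Alternatives were DESeq2 1.42.0, DESeq2 size factors, upper quartile scaling, rRNA kept, no filter, open reading frames only (by systematic name), 4 WT libraries only, a replicate block and leaving out each WT library. Tables and figures were made in Python 3.11.15 with pandas 2.3.3 and matplotlib 3.10.9. No promoter table was at hand, so promoters were read from the RefSeq genome of R64. Data were simulated for 7278 features outside the rRNA locus, with a dispersion set to 0.05 and no other features changed. There the WT comparison recovered 92.0% of 100 changes of 4-fold and 18.2% of 99 changes of 2-fold, with 5 false calls among 115. Many 2-fold changes were thus missed in that setting. The dispersion was not estimated from these libraries and far more features were called in them, so these rates do not carry over to the data.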

Additional observations from a re-analysis of the deposited data

How the results depend on the processing

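No feature changed the sign of its call under any alternative, and the 35 genes and transcripts named for the largest changes or as antioxidant genes kept their direction. The genes named only for a difference between strains were not followed one by one. With 1 WT library left out, the calls ranged from 951 to 3164 in all, from 635 to 1655 up and from 316 to 1509 down, and those of at least 2-fold from 633 to 1438 up and from 316 to 1265 down. The number of features that differed from sro9Δ was 2 with DESeq2 and ranged from 0 to 499 with 1 WT library left out, and the number that differed from slf1Δ was 49 with DESeq2, 8 without the filter on low counts, and ranged from 0 to 872 with 1 WT library left out. The cause was not tested. The labels give no shared culture for a replicate number, and deviations of same-numbered libraries correlated at -0.11 in WT, -0.03 in sro9Δ and 0.17 in slf1Δ, so the numbers were not taken as pairs. The replicate block gave 1301 features up and 1110 down in WT, 0 that differed from sro9Δ and 27 from slf1Δ, and moved the cell cycle median to -1.31. A block with the WT numbers crossed, chosen after seeing the data, gave 1408 up and 1159 down, 3 that differed from sro9Δ and 103 from slf1Δ, and a cell cycle median of -1.21. Leaving out the rRNA locus frames, also chosen after seeing the data, gave 1417 up and 1215 down. Upper quartile scaling moved the list medians of purine and pyrimidine synthesis to -0.88, permeases to -0.16, cell cycle to -1.36, ER folding to -0.25, peroxisomal genes to 0.08, meiosis genes to 0.50, SUT transcripts to 0.12 and CUT transcripts to -0.06. Open reading frames alone, dubious frames and those of the rRNA locus included, gave -0.70 for purine and pyrimidine synthesis and -1.18 for the cell cycle. The 4 WT libraries alone gave -0.77 and -1.27, and the cell cycle median was -1.25 with DESeq2 size factors and -1.27 with DESeq2. With 1 WT library left out the medians ranged from 1.22 to 2.28 for peroxiredoxins and thioredoxins, 2.25 to 3.34 for flavin and aldo-keto reductases, -0.10 to 0.27 for sulfur genes, -0.92 to -0.71 for purine and pyrimidine synthesis, -0.05 to 0.46 for permeases, -1.38 to -1.17 for the cell cycle, -0.09 to 0.04 for ER folding, 0.15 to 0.39 for peroxisomal genes, 0.49 to 0.76 for meiosis genes and 0.23 to 0.46 for SUT transcripts. With the 250 bases before the start codon alone, the PAC core was in 11.1% of promoters of genes that rose, 36.6% of those that fell and 16.9% of all, the Msn2 and Msn4 type motif in 9.4% of those that fell and 19.2% of all, and the Yap1-type motif in 6.8% of all. H2O2 replicate 2 had 783323 counts outside the rRNA locus, and what this depth did to the number of falls was not tested.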

Other observations

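Beside 19.5% up and 16.3% down over all features, 152 of 634 tested SUT features (stable unannotated transcripts) rose (24.0%) and 40 fell (6.3%), with a median of 0.27, and they took 3.38% and 3.19% of the counts outside the rRNA locus in the H2O2 libraries, against 1.59% and 1.53% in the untreated libraries. Of 583 tested CUT features (cryptic unstable transcripts) 85 rose (14.6%) and 57 fell (9.8%), with a median of 0.08. Many lie beside or across from genes, as SUT668 does with SRX1, and the strand setting is not stated. Without H2O2 replicate 1, 74 SUT features rose and 10 fell, and 35 CUT features rose and 5 fell. Of 78 snoRNA and spliceosomal snRNA features 31 were tested, 2 rose (6.5%) and 3 fell (9.7%), and 12 rose without untreated replicate 2. Among them snR54 had 0 counts in both H2O2 libraries, against 13 and 32 in the untreated libraries.

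In several further lists the share that rose was near or below that of all features, and the share that fell was below it. Of 22 DNA damage response genes 5 rose and 1 fell, of 17 tested hexose transporter genes 4 rose, among them HXT6 (2.63) and HXT7 (2.60), which are near-identical, and of 18 peroxisomal genes 4 rose and 1 fell. The rises without H2O2 replicate 1 numbered 3 for DNA damage and 1 for peroxisomal genes. Of 19 genes of protein folding in the endoplasmic reticulum 3 rose and 2 fell, with ERO1 (1.65) the largest rise and JEM1 (-1.08) the largest fall. Of 12 tested meiosis genes 2 rose, and none did without H2O2 replicate 1. None of the 7 tested genes encoded in the mitochondrial genome was called in edgeR, with changes between -0.27 (COX1) and 1.55 (ATP6), and 3 rose without untreated replicate 2.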
